A study of Mus musculus with 4 samples.

Results

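Heat shock chaperones were followed as a set of 10 genes, chosen by name: Hspa1a, Hspa1b, Hspa8, Hspa5, Hsp90aa1, Hsp90ab1, Hspb1, Hspe1, Hspd1 and Dnajb1. All 10 were found among the 23337 gene names of the deposited tables, and all 10 lie among the 12251 genes that were tested. The source was labelled as liver macrophages (Kupffer cells), sorted from Lyz2cre-RosaYFP reporter mice of both sexes aged 6 to 8 weeks. Cre recombinase in these mice is driven by Lyz2, a lysozyme gene of myeloid cells, and opens a Rosa locus cassette for YFP, a yellow fluorescent protein, which then marks the cell and its descendants. All mice carried the same reporter, and the groups are 2 YFP+ and 2 YFP- libraries of sorted cells. Within each group the library titles start with M (replicate 1) or FM (replicate 2), which the labels do not explain, and pooling of animals is not stated. Nothing in the labels ties the libraries to separate animals, so p-values rest only on the spread between these libraries, which may be technical. In the main limma fit that spread, and so each SE and p, was taken from a trend over all tested genes. It was not taken from the values of the single gene.

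Chaperones bind unfolded protein and keep it from clumping until it folds or is degraded. HSP70 proteins take hold of short hydrophobic stretches with the help of J-domain partners, HSP90 proteins finish the folding of kinases and receptors, chaperonins enclose a chain in a barrel, and small heat shock proteins hold unfolded chains without using ATP. Heat, oxidation and the handling of tissue release heat shock factor 1 (Hsf1), which binds inverted repeats of GAA, the heat shock elements, and induces the stress-responsive members, while unfolded protein in the endoplasmic reticulum (ER) induces Hspa5 through a separate element. Macrophages make the constitutive members in quantity, and chaperones take part in their antigen handling and secretion.

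Promoter sequence was matched for 7 of the 10 genes in RefSeq (GRCm38.p6), with a start site equal to that in the deposited tables, and not for Hspa8, Hsp90aa1 and Hsp90ab1. The following windows are shown because they hold letters of the heat shock element, and because Hspb1 was the chaperone with the widest difference and Hspa1a is the classical inducible HSP70. Capitals mark GAANNTTC or TTCNNGAA, searched on both strands, in the 250 bases before the start site.
Hspa1a, chr17:34972157-34972406, minus strand: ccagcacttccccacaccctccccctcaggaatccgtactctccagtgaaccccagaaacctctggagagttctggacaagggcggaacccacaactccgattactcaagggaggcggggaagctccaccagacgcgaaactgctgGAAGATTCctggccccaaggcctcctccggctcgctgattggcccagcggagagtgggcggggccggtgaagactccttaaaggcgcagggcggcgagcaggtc
Hspb1, chr5:135887669-135887918, plus strand: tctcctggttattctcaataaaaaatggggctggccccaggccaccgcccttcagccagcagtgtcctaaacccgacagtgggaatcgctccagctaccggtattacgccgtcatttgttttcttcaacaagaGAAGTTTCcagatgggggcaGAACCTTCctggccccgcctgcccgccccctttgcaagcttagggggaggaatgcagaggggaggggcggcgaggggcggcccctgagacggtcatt
The Hspa1a window holds 1 GAANNTTC, and the Hspa1b window of the same length differs from it at 3 of 250 bases and holds 1. The Hspb1 window holds 2. Of 32851 windows of that length in RefSeq, 6.69% hold GAANNTTC and 7.17% hold TTCNNGAA. The mitochondrial pair Hspd1 and Hspe1 lie head to head on chromosome 1, and the site below lies between their starts in the deposited tables, in capitals where units of both motifs overlap. RefSeq lists another Hspd1 start at position 55088243, on the far side of the Hspe1 start, and the site lies downstream of that one.
Hspd1-Hspe1 site, chr1:55088053-55088082, plus strand: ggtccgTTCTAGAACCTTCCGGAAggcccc
It includes 2 overlapping matches of the longer GAANNTTCNNGAA on either strand, a motif that 0.466% of windows hold. The last site is from Hspa5, in capitals the ER stress response element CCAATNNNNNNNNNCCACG, which 0.113% of windows hold.
Hspa5 site, chr2:34772020-34772049, plus strand: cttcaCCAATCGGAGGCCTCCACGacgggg
No heat shock motif of these letters was found in the Hspa5 and Dnajb1 windows. RefSeq lists another Dnajb1 start at position 83608548, 373 bases downstream, and the window before that one was not searched. Of the Hspa5 window 120 bases overlap an annotated exon of Hspa5 itself. The interval between the Hspd1 and Hspe1 starts overlaps an annotated Hspd1 exon by 159 bases, and the printed site lies inside that exon. The Dnajb1 window overlaps an exon of Tecr by 47 bases. These matches describe the letters in the window and not a bound site.

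The libraries differ widely beyond the chaperones. Levels are in TPM, transcript abundance per length scaled to a sum of 1000000 in each library. A log2 fold change is the mean log2(TPM + 1) of the YFP+ libraries less that of the YFP- libraries, a scale that understates changes of low genes. Over all tested genes its median was -1.73 (M libraries alone -1.01, FM libraries alone -2.48), so a chaperone is read against that shift as well as against 0. All 10 Kupffer cell markers were above 1 TPM in at least 1 library of each group, with a sum of 33353 to 34686 TPM in YFP+ and 6185 to 12759 in YFP- libraries. The 10 microglia markers summed to 75.5 to 1021 TPM in YFP+ and 16425 to 17678 in YFP- libraries, so in both libraries labelled YFP- they outweighed the Kupffer cell markers. Reads in bulk RNA cannot tell fewer cells of a type from less RNA per cell. Mean coverage at 1 FPKM, the measure of depth at hand, ran from 2.59 to 9.19, with 2.60 in YFP+ FM and 2.59 in YFP- FM. The 100 highest genes took 54.0% of TPM in YFP+ M, 66.1% in YFP+ FM, 40.9% in YFP- M and 29.7% in YFP- FM. In the same order 10302, 7386, 12434 and 12829 genes reached 1 TPM. The part of these differences in the shift over all genes was not tested.

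As a set the chaperones took a smaller share of the RNA in YFP+ than in YFP- libraries. Their summed share of TPM was 0.546% in YFP+ M, 0.414% in YFP+ FM, 0.730% in YFP- M and 1.21% in YFP- FM. Hspa8, Hsp90ab1 and Hspa5 made up 80.1% to 91.3% of that sum in every library. Of the 10 genes 3 were called lower and 0 higher in YFP+ libraries (limma-trend with Benjamini-Hochberg adjustment over all tested genes), while 39.5% of all 12251 tested genes were called lower and 0.522% higher. At an unadjusted p under 0.05, 4 were lower and 0 higher. The called genes were Hspb1, Hsp90aa1 and Dnajb1. In 9 of 10 genes both YFP+ libraries lay below both YFP- libraries, as they did in 79.7% of all tested genes, and in 0 of 10 they lay above, as they did in 2.5%. These counts do not set the chaperones apart. Their median log2 fold change was -1.23, with 6 genes above and 4 below the median of all genes. The shift depended on level: the 272 genes with a mean of at least 500 TPM had a median of 0.73, with 17.3% called higher and 4.41% lower. Hspa8, Hsp90ab1 and Hspa5 are among these 272 genes, and all 3 lay below that median. With 2 libraries in each group the smallest two-sided p of an exact permutation test is 0.333.

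**Figure D1:**
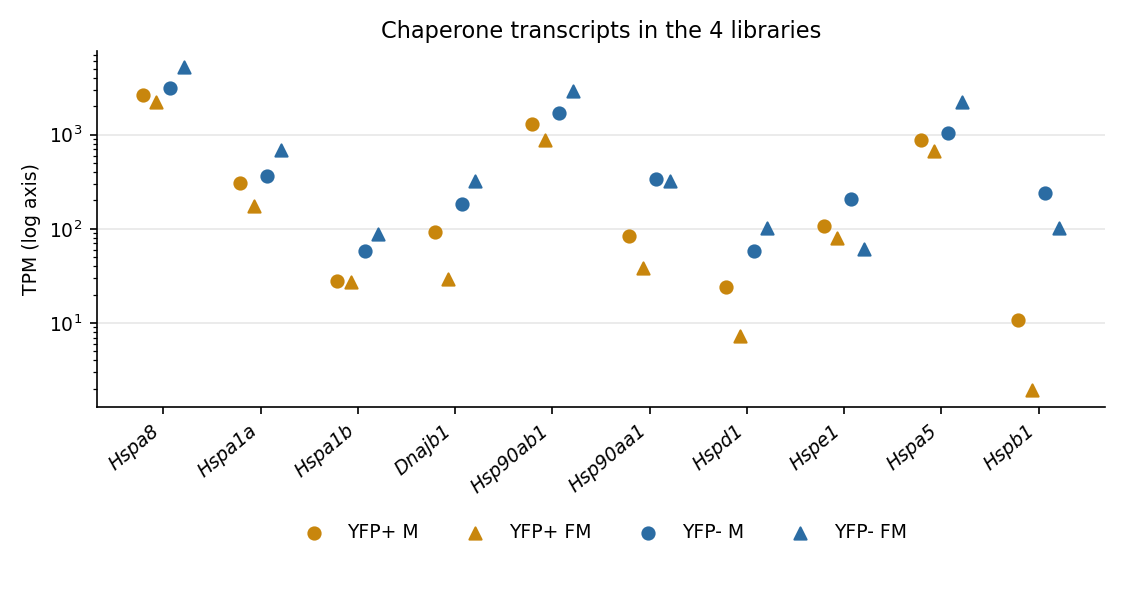
TPM of the 10 chaperone genes (log axis) in each library, with YFP+ libraries in orange, YFP- libraries in blue, circles for titles beginning with M and triangles for FM. Each point is 1 library; only for Hspe1 do the groups overlap, and Hspb1 shows the widest gap.

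The constitutive cytosolic HSP70 was the most abundant chaperone in all 4 libraries. Hspa8 (chromosome 9, 40801273 to 40805199 in mm10) folds new protein and strips clathrin from vesicles. It was at 2614 TPM in YFP+ M, 2218 in YFP+ FM, 3119 in YFP- M and 5253 in YFP- FM. The groups did not overlap, but the YFP- FM library alone stood far from the other 3. Its log2 fold change was -0.75 (SE 0.64, limma adjusted p = 0.309), which is 0.98 above the median of all genes but below the 0.73 of genes with at least 500 TPM. By level it ranked 81 and 116 of 23337 gene names in the YFP+ M and FM libraries and 51 and 9 in the YFP- M and FM libraries. Of 50-base windows of its transcript, 73.2% also occur in transcripts of other genes, mostly the pseudogene Gm15459, so how the authors' counting divided its reads is uncertain.

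The stress-inducible HSP70 genes were also present in every library. Hspa1a (chromosome 17, 34969359 to 34972156), low in resting cells and strongly induced by heat, was at 306 TPM in YFP+ M, 177 in YFP+ FM, 365 in YFP- M and 685 in YFP- FM. Its neighbour Hspa1b (chromosome 17, 34956429 to 34959238), which encodes nearly the same protein, was at 28.01 and 27.2 TPM in the YFP+ M and FM libraries and at 58.8 and 88.6 in the YFP- M and FM libraries. Neither pair of groups overlapped, and neither gene passed. The log2 fold changes were -1.10 (SE 0.83, limma adjusted p = 0.253) and -1.36 (SE 1.03, adjusted p = 0.255). Of 50-base windows 60.3% in the Hspa1a transcript and 62.3% in that of Hspa1b are shared with other genes, chiefly each other, so the split between them is uncertain while the sum is less so. The sum of both came to 12.8% of the Hspa8 level in YFP+ M, 9.19% in YFP+ FM, 13.6% in YFP- M and 14.7% in YFP- FM. A ratio of TPM values does not depend on a single factor applied to a whole library. Quantile normalization and cyclic loess, rescalings that act by level, can change it. On the log2 scale, with 1 added to each TPM sum, the ratio to Hspa8 differed by -0.38 (exact permutation p = 0.333, 0.444 adjusted over the 8 ratios computed).

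The J-domain partner of the inducible HSP70, which triggers its ATPase, was called lower. Dnajb1 (chromosome 8, 83608175 to 83611903) was at 91.8 TPM in YFP+ M, 29.3 in YFP+ FM, 183 in YFP- M and 321 in YFP- FM. Its log2 fold change was -2.20 (SE 0.94, limma adjusted p = 0.0483), just past the threshold of 0.05 and 0.47 below the median of all genes. Relative to Hspa8 it stood at 3.51% and 1.32% in YFP+ M and FM, and at 5.87% and 6.11% in YFP- M and FM. The groups did not overlap in that ratio, which differed by -1.45 on the log2 scale (exact permutation p = 0.333). The 2 genes differ in level, and the part of level in this ratio was not tested. Under quantile normalization and cyclic loess Dnajb1 (log2 fold change -1.16 and -1.27) fell less than Hspa8 (-1.49 and -1.83). The call ended under 11 of the 12 other settings, with an adjusted p of 0.0525 when only genes of at least 5 TPM were tested, and remained only without the YFP+ M library. A fit without a library leaves 1 in that group, which is assumed to vary like the other group.

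**Figure D2:**
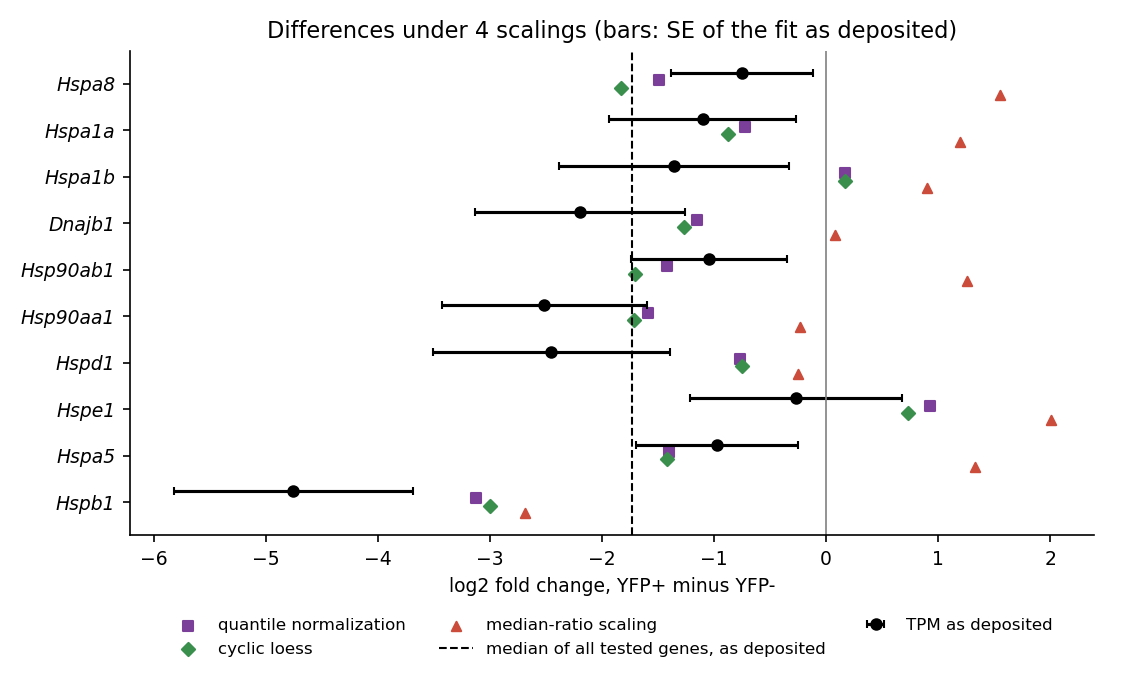
Log2 fold change (YFP+ minus YFP-) of each chaperone under 4 scalings of the libraries, with the limma SE for the values as deposited. The dashed line is the median of all tested genes as deposited, -1.73; 7 of the 10 signs turn under median-ratio scaling (all but Hspb1, Hsp90aa1 and Hspd1), while Hspb1 stays between -4.76 and -2.69.

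Of the cytosolic HSP90 isoforms the inducible one was called lower and the constitutive one was not. Hsp90ab1 (chromosome 17, 45567778 to 45573261), the constitutive isoform, was at 1314 TPM in YFP+ M, 885 in YFP+ FM, 1695 in YFP- M and 2930 in YFP- FM (log2 fold change -1.05, SE 0.69, limma adjusted p = 0.196). Hsp90aa1 (chromosome 12, 110691036 to 110696395), the isoform that stress induces, was at 83.8 TPM in YFP+ M and 38.6 in YFP+ FM, against 341 in YFP- M and 320 in YFP- FM. The YFP- libraries were alike for Hsp90aa1 and both far above the YFP+ libraries. It was called lower (log2 fold change -2.51, SE 0.92, limma adjusted p = 0.0231), or 5.71-fold on that scale. The isoforms are set side by side by their ratio inside a library, which was 6.38% in YFP+ M, 4.36% in YFP+ FM, 20.1% in YFP- M and 10.9% in YFP- FM. On the log2 scale this ratio differed by -1.64 in the M pair and -1.29 in the FM pair, with a mean difference of -1.47 (exact permutation p = 0.333, the smallest that 2 against 2 allows). The call of Hsp90aa1 ended without the YFP+ FM (adjusted p = 0.189), the YFP- M (0.388) or the YFP- FM library (0.680), and in a fit blocked on title start (0.123). Its log2 fold change was then -1.96, -2.47, -2.56 and -2.51, so apart from the first it stayed close to the value over all libraries while the p rose. The call also ended under each rescaling. The log2 fold change of Hsp90aa1 was -1.59 under quantile normalization, -1.72 under cyclic loess and -0.23 under median-ratio scaling. That of Hsp90ab1 was -1.42, -1.71 and 1.25 in the same order. The isoforms thus lay close together under quantile normalization and loess, and apart under median-ratio scaling. They differ in level, and the part of level in their ratio was not tested. Of 50-base windows of the Hsp90aa1 transcript 58.5% also occur in other genes, against 4.49% for Hsp90ab1.

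The mitochondrial chaperonin pair, whose start sites face each other across a short interval, had separate profiles, and neither gene passed. Hspd1 (chromosome 1, 55077834 to 55087932) encodes the barrel and Hspe1 (chromosome 1, 55088148 to 55091317) its lid. Hspd1 was at 23.9 TPM in YFP+ M, 7.22 in YFP+ FM, 58.8 in YFP- M and 102 in YFP- FM, without overlap. Its log2 fold change of -2.45 (SE 1.06) missed the threshold, with a limma adjusted p of 0.0506, and passed without the YFP+ M library (0.00476). Hspe1 was at 108 TPM in YFP+ M, 79.6 in YFP+ FM, 206 in YFP- M and 60.4 in YFP- FM. Here the highest and the lowest value were both YFP- libraries, and the log2 fold change was -0.27 (SE 0.95, limma adjusted p = 0.811). The ratio of Hspe1 to Hspd1 was 4.53 in YFP+ M, 11.02 in YFP+ FM, 3.50 in YFP- M and 0.595 in YFP- FM, so only in YFP- FM was the lid below the barrel. The ratio differed between the groups by 2.19 on the log2 scale (exact permutation p = 0.333), by 0.34 in the M pair and 4.03 in the FM pair. Of 50-base windows 44.8% in the Hspd1 transcript and 36.1% in that of Hspe1 also occur in other genes, so their read counts are uncertain.

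Transcript length moved with the Hspe1 values. Its longest coding transcript in GENCODE M21 has 774 bases, Hspb1 has 930 and the other 8 chaperones have 2394 to 3672. Among the 588 tested genes with transcripts under 1000 bases, the median difference of YFP- FM minus YFP- M was -0.99 on the log2 scale, while it was 0.68 among the 4411 genes of 2000 to 4000 bases. Hspe1 and Hspb1 were lower in YFP- FM than in YFP- M, as was Hsp90aa1, and the other 7 chaperones were higher. YFP+ minus YFP- had a median of -0.77 in the M pair and -0.33 in the FM pair among the genes under 1000 bases. Among the genes of 2000 to 4000 bases, which include Hspd1, it was -0.999 in the M pair and -2.74 in the FM pair. The part of transcript length in the Hspe1 result and in the ratio of Hspe1 to Hspd1 was not tested. Hspd1 was set beside Hspa9, the HSP70 of the mitochondrial matrix that threads imported proteins inward. Hspa9 fell (log2 fold change -2.73, limma adjusted p = 0.0271), and the ratio of Hspd1 to Hspa9 was 0.707 and 0.948 in YFP+ M and FM against 0.715 and 0.645 in YFP- M and FM. The ranges of that ratio overlapped between the groups.

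**Figure D3:**
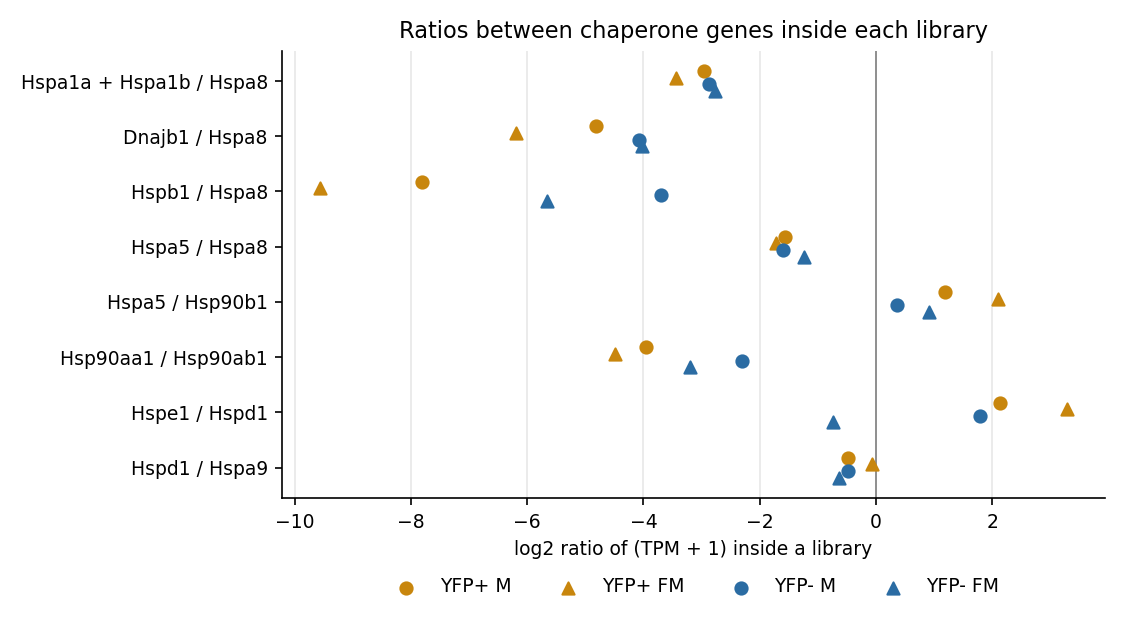
Log2 ratios of (TPM + 1) between chaperone genes inside each library, from TPM as deposited. A single factor applied to a whole library alters them only through the added 1. Quantile normalization and cyclic loess can alter them further. Orange is YFP+, blue YFP-, circles M and triangles FM. Hspb1 to Hspa8, Dnajb1 to Hspa8 and Hsp90aa1 to Hsp90ab1 are lower in both YFP+ libraries, Hspe1 to Hspd1 and Hspa5 to Hsp90b1 higher.

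In the ER the main HSP70 did not pass, while its HSP90 partner did. Hspa5 (chromosome 2, 34772090 to 34776529), also called BiP, binds chains entering the ER and restrains the sensors of unfolded protein. It was at 879 TPM in YFP+ M, 676 in YFP+ FM, 1031 in YFP- M and 2231 in YFP- FM (log2 fold change -0.97, SE 0.73, limma adjusted p = 0.247). As with Hspa8, the M libraries were close to each other (difference -0.23) and the FM libraries apart (-1.72). Hsp90b1, the HSP90 of the ER that folds integrins and Toll-like receptors, fell from 799 and 1189 TPM in YFP- M and FM to 385 and 158 TPM in YFP+ M and FM (-1.98, limma adjusted p = 0.0375). The ratio of Hspa5 to Hsp90b1 was therefore 2.28 in YFP+ M and 4.29 in YFP+ FM, above 1.29 in YFP- M and 1.88 in YFP- FM, a log2 difference of 1.004 (exact permutation p = 0.333). Relative to Hspa8, Hspa5 stood at 33.6% and 30.5% in YFP+ M and FM against 33.04% and 42.5% in YFP- M and FM, with overlap. No 50-base window of the Hspa5 transcript occurs in another gene.

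The small heat shock protein Hspb1 showed the widest difference of the set. Hspb1 (chromosome 5, 135887919 to 135889563), which holds unfolded chains and steadies actin filaments, was at 10.7 TPM in YFP+ M, 1.92 in YFP+ FM, 239 in YFP- M and 103 in YFP- FM. Both YFP+ libraries lay far below both YFP- libraries. It was called lower, with a log2 fold change of -4.76 (SE 1.07, limma adjusted p = 0.000346), or 27.0-fold on that scale, and only 0.449% of tested genes had a lower value. Relative to Hspa8 inside a library it differed by -4.11 in the M pair and by -3.91 in the FM pair (exact permutation p = 0.333). Coverage of the gene was 4.04 in YFP+ FM, the thinnest of any chaperone in any library, and 51.6% of its 50-base windows also occur in the pseudogene Hsp25-ps1. The call remained under median-ratio scaling (adjusted p = 0.0133) and in a fit blocked on title start (0.0110). It missed the threshold under quantile normalization (0.0517) and cyclic loess (0.0708), with no filter on low values (0.188), and without the YFP- M (0.388) or the YFP- FM library (0.265), where the log2 fold changes were still -3.12, -3.00, -4.76, -4.15 and -5.36.

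Some marker lists of other cell types held genes called lower, to be read against the 39.5% of all tested genes that were. All 10 microglia markers were called lower in YFP+ libraries. Of 10 markers of liver sinusoidal and vascular endothelium 6 were called lower and 0 higher. The sum of the 10 was 177 to 359 TPM in YFP+ and 1259 to 1378 in YFP- libraries. The list was split. Stab2 (log2 fold change -0.03), Cdh5 (-0.05) and Clec4g (-0.81) overlapped between the groups, and Oit3 was not called. Cldn5, called lower, was the largest part of the YFP- sums, at 435 TPM in YFP- M and 372 in YFP- FM. Of 8 tested oligodendrocyte and astrocyte markers 6 were called lower and 0 higher, with sums of 9.64 to 64.0 against 829 to 844 TPM, and Mog, a myelin gene below the filter, was listed at 0 in both YFP+ libraries and in YFP- FM. Of 9 tested T and NK cell markers 5 were called lower, with sums of 94.3 to 165 against 423 to 1139 TPM. Of 10 Kupffer cell markers 5 were called higher and 0 lower. Hepatocyte markers had 1 of 9 called lower, with sums of 1791 to 2139 against 2779 to 6342 TPM. The called gene was Ttr (log2 fold change -4.10, limma adjusted p = 0.000243). Trf was the largest part of the sum in every library, at 1807 TPM in YFP+ M, 1055 in YFP+ FM, 1399 in YFP- M and 4190 in YFP- FM. Of the 10 listed genes both YFP+ libraries lay lower for 3 and higher for 1, Apoa1. Neutrophil markers had 1 of 9 called lower, with sums of 1616 to 7116 against 2187 to 4034 TPM, the highest in YFP+ FM. At an unadjusted p under 0.05 none of the markers of cells other than Kupffer cells was higher. The part of these cells in the chaperone values was not tested.

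The genes whose profile over the 4 libraries lay nearest to each chaperone were taken from 2079 tested genes with a mean of at least 50 TPM, by the Euclidean distance of centred log2(TPM + 1) values. With 4 points such likeness is only a description. For Hspb1 these were Cxcl12 (distance 0.30), Itm2a (0.36) and Tsc22d1 (0.42), and the nearest other chaperone, Hsp90aa1, was far off at 2.46. For Hspe1 they were Tomm7 (0.10), Dbi (0.15) and Snrpg (0.19), with the nearest chaperone, Hspa8, at 1.84. The longest coding transcripts of Tomm7, Dbi and Snrpg have 1125, 569 and 1055 bases, while those of Cxcl12, Itm2a and Tsc22d1 have 5627, 1744 and 4999. All 6 genes were lower in YFP- FM than in YFP- M, as Hspe1 and Hspb1 were, but they were picked for that likeness. Their drop therefore cannot tell how transcripts of a given length behave. Among the 3528 tested genes with transcripts over 4000 bases the median of YFP- FM minus YFP- M was 0.65. Hspa1a and Hsp90ab1 were each other's nearest chaperone at 0.19, and so were Hspd1 and Dnajb1 at 0.26. Hspa8 lay nearest to Prkcsh (0.09) and Dnajb1 to Mylip (0.05), Sdha (0.07) and Snap23 (0.09).

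The wider chaperone network had lower calls in 5 of 6 lists and no higher call. Of 97 tested genes in 6 lists, 26 were called lower (26.8%, against 39.5% of all tested genes) and 0 higher, with 38 lower and 0 higher at an unadjusted p under 0.05 (limma). Their median log2 fold change was -1.77, close to the -1.73 of all tested genes. The factor behind the heat response, Hsf1, was at 28.4 TPM in YFP+ M, 15.999 in YFP+ FM, 43.5 in YFP- M and 85.9 in YFP- FM. The difference did not pass (log2 fold change -1.48, limma adjusted p = 0.225). Hsf2, a second factor of that family, was too low to test. It reached 0.519 TPM in YFP+ M, was listed at 0 in YFP+ FM, and stood at 1.88 TPM in YFP- M and 0.872 in YFP- FM.

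Among 14 tested heat shock factors and other heat-inducible genes 6 were called lower, with a list median of -1.66. They were led by small heat shock proteins and an HSP70 partner. Hspb8, which works with the co-chaperone Bag3, was at 0.756 and 0.148 TPM in YFP+ M and FM against 14.7 and 10.3 in YFP- M and FM (-3.23, limma adjusted p = 0.00173). Cryab, the lens and muscle crystallin, had a log2 fold change of -2.69 (adjusted p = 0.0202) and Hsph1, which exchanges nucleotide on HSP70, of -3.20 (adjusted p = 0.0176). Of 22 genes of the cytosolic HSP70 and HSP40 machine 6 were called lower (median -1.95), among them the J-domain genes Dnaja4 (-2.93, adjusted p = 0.00512) and Dnajb4 (-2.79, 0.0325) and the HSP70 regulator Bag4 (-1.66, 0.0262). Of 12 HSP90 co-chaperones 0 were called in either direction (median -1.28, lowest limma adjusted p = 0.0873), with 1 lower and 0 higher at an unadjusted p under 0.05.

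Of 23 ER chaperone and unfolded protein response genes 7 were called lower (median -1.54), including Canx, the lectin chaperone of glycoproteins (-2.58, adjusted p = 0.0221), the ER reductase Dnajc10 (-3.14, 0.0226) and Eif2ak3, the stress sensor PERK (-3.04, 0.0265). Of 12 mitochondrial chaperones and proteases 4 were called lower (median -1.999), among them Clpx (-3.23, 0.0194), Yme1l1 (-2.68, 0.0230) and Hspa9. Of 14 CCT chaperonin and prefoldin genes 3 were called lower (median -1.75), the prefoldin subunit Vbp1 (-3.23, 0.0184) and the chaperonin subunits Cct2 (-2.27, 0.0373) and Cct6a (-2.41, 0.0468). Under rescaling nearly all of these calls ended. Quantile normalization and cyclic loess called 0 of the network's genes in either direction, and median-ratio scaling called Hspb8 (adjusted p = 0.0186) and Dnaja4 (0.0418) lower and Sdf2l1, an ER co-chaperone, higher (2.23, 0.0447).

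**Figure D4:**
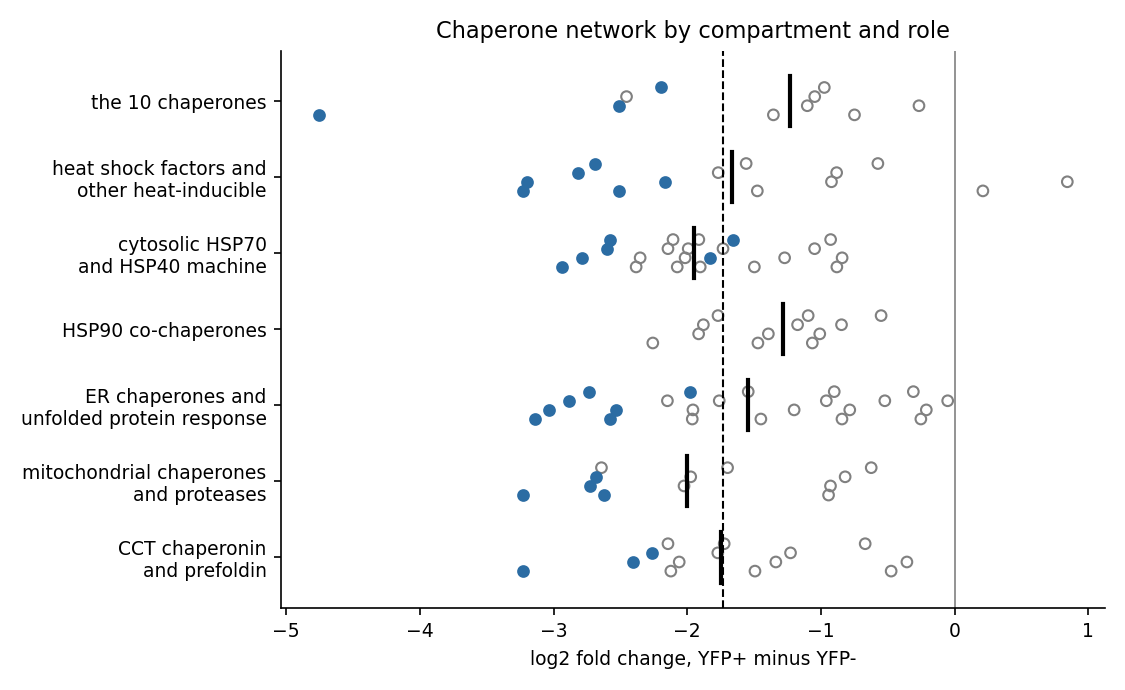
Log2 fold change (YFP+ minus YFP-, TPM as deposited) of the 10 chaperones and of the tested genes in 6 lists of the chaperone network. Filled points were called lower (limma adjusted p under 0.05), open points were not called, black bars are medians and the dashed line is the median of all tested genes, -1.73.

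The chaperones were last set against the median of all genes under each of 13 ways of processing, the one used above included. Hspb1, Hsp90aa1 and Hspd1 lay below the median of all genes in 13 of 13 settings, and Dnajb1 in 11. Hspe1 lay below it in 0 of 13, Hspa1b in 2, and Hspa1a, Hspa8, Hspa5 and Hsp90ab1 in 3 each (no filter, quantile normalization and cyclic loess). Under quantile normalization the log2 distance from it was -1.46 for Hspa8, -1.38 for Hsp90ab1 and -1.37 for Hspa5. Under cyclic loess the distances were -1.82, -1.70 and -1.41, so the side on which these abundant chaperones lie turns with the scaling. The settings share libraries and are not independent. Without the filter on low values, and without the YFP- M or the YFP- FM library, 0 of the 10 chaperones passed.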

How the data were processed

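RNA of sorted liver macrophages was sequenced in 4 libraries, 2 per group; groups follow the genotype label. Each library has its own gene table with 3 deposited measures per the file headers: mean read coverage, FPKM (fragments scaled by length and library total) and TPM. The submitters' processing notes list HISAT (no version) and GRCm38/mm10. The program behind the tables was not given in the sources used here. No counts were used, and depth in reads is unknown, so no counting interval is given. An exact 0 can be a failed estimate.

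Rows of 1 gene name were summed (166 of 23337 names). The 12251 genes that reached 1 TPM in 2 or more libraries were tested on log2(TPM + 1) by limma-trend (limma 3.58.1, R 4.3.3) with YFP group as the only term, Benjamini-Hochberg adjustment over all tested genes and a threshold of 0.05. The prior degrees of freedom were infinite, so each p rests on the trend over all genes. The fit was run on simulated data first, and nothing here rests on its rates. Ratios were tested with an exact two-sided permutation test.

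The chaperones, gene lists and marker lists were chosen with earlier results of these data known. Named genes are all 10 chaperones, Hsf1, Hsf2 and the partners used in ratios. From each list up to 3 called genes with the smallest adjusted p are also named. Sdf2l1 and the marker genes Ttr, Trf, Apoa1, Stab2, Cdh5, Clec4g, Oit3 and Cldn5 were named after their values were seen. One list entry was matched by an older symbol and 2 entries are not analysed here. Deviations from the group means did not go together in libraries with the same title start (correlation over genes -0.01), so the title start was used as a block only in an alternative. Shared 50-base windows and transcript lengths came from GENCODE M21 (GRCm38), with a length for 88.2% of tested genes, and promoters from RefSeq. Scripts ran in Python 3.11.15 with SciPy 1.17.1, NumPy 2.4.6, pandas 2.3.3 and, for plots, matplotlib 3.10.9.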

Additional observations from a re-analysis of the deposited data

Results flagged for a closer look

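Hspe1 differed in opposite directions between the title starts, with YFP+ minus YFP- at -0.93 in the M pair and 0.39 in the FM pair on the log2(TPM + 1) scale. The ratio of Hspa5 to Hspa8 did so as well, at 0.026 in the M pair and -0.48 in the FM pair, as did the ratio of Hspd1 to Hspa9, at -0.0070 and 0.56. Each value rests on 1 library per group, and the difference between the title starts was not tested.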

How the results depend on the processing

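With 2 libraries per group, FM libraries of low coverage and no read counts, every call here rests on few values, and a fit without 1 library takes the spread of the lone one from the other group. Genes called lower numbered 4834 as deposited, 3078 with a pseudocount of 0.1, 168 without a filter, 2902 with a filter at 5 TPM, 205 under quantile normalization, 723 under median-ratio scaling, 40 under cyclic loess, 1726 with the title start as a replicate block, and 24 to 8280 when 1 library was left out. Genes called higher numbered 64 as deposited, 1 without a filter, 148 under quantile normalization, 689 under median-ratio scaling, 115 in FPKM, 23 with the replicate block and 12 to 71 when 1 library was left out. These rescalings moved the median log2 fold change of all genes from -1.73 to -0.03 (quantile), -0.08 (median ratio) and -0.01 (loess). Of the 10 chaperones 3 were called lower as deposited, 0 without a filter, under quantile normalization or under loess, 1 under median-ratio scaling and 1 with the replicate block (Hspb1 in both), and 0 to 4 when 1 library was left out (4 without YFP+ M, 1 without YFP+ FM, 0 without either YFP- library); 0 were called higher in any setting. In the chaperone network 26 genes were called lower as deposited, 12 with a pseudocount of 0.1, 0 without a filter, under quantile normalization or under loess, 2 under median-ratio scaling, 1 with the replicate block, and 0 to 63 when 1 library was left out, with 1 called higher under median-ratio scaling.

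Signs turned, without a call, in these cases (log2 fold change). Under median-ratio scaling Hspa1a was at 1.19, Hspa1b at 0.90, Hspa8 at 1.55, Hspa5 at 1.33, Hsp90ab1 at 1.25, Hspe1 at 2.00 and Dnajb1 at 0.076. Hspa1b was at 0.17 under both quantile normalization and loess, and Hspe1 at 0.93 and 0.73 there, 0.27 in FPKM and 0.61 without the YFP- M library (range -1.14 to 0.61 when 1 library was left out). Inside the M start the ratio of Hspa5 to Hspa8 differed by 0.026, against -0.23 over all libraries. That of Hspd1 to Hspa9 differed there by -0.0070, against 0.28. The other 6 ratios kept their sign with a pseudocount of 0.1, in FPKM, without any 1 library and inside each title start. No ratio was computed under quantile normalization, loess or median-ratio scaling. Under quantile normalization and loess Dnajb1 (-1.16 and -1.27) and Hspa1a (-0.73 and -0.88) fell less than Hspa8 (-1.49 and -1.83). As deposited both fell further than Hspa8.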

Other observations

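The list of immediate-early genes, transcription factors and feedback regulators switched on within minutes of stimulation, was set beside the chaperones. Its 15 genes summed to 17988 TPM in YFP+ M, 17794 in YFP+ FM, 9514 in YFP- M and 15662 in YFP- FM. Of these genes 0 were called higher and 2 lower (limma), with 1 higher and 2 lower at an unadjusted p under 0.05. The list's median log2 fold change was 0.32 beside -1.23 for the 10 chaperones and -1.73 for all tested genes. These medians are not matched for level. Several of the 15 genes have a mean of at least 500 TPM, and the 272 tested genes at that level had a median of 0.73. The 2 that were called lower were Jun (-2.42, limma adjusted p = 0.0289) and Socs3 (-2.75, 0.0184), named after their values were seen.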
